A study of Mus musculus with 2 samples.

Results

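The interleukin 6 (IL-6) family was followed here through 10 genes of the 32285 in the annotation. They were chosen by symbol as the ligand genes Il6, Osm, Lif and Il11, the receptor chain genes Il6ra, Osmr, Lifr and Il6st, the signal transducer Stat3 and the feedback inhibitor Socs3. All 10 were found. Their transcripts were counted by single-nucleus RNAseq (snRNAseq) in 2 libraries from wild-type C57BL6 mice. One library held nuclei from periosteal tissue and fracture hematoma, taken 1 day after an open, non-stabilised tibial fracture. The other held nuclei of the callus and hematoma at day 5 after a musculoskeletal traumatic injury (MTI), which combines the tibial fracture with a compression injury of the surrounding muscles. The titles of both libraries read hematoma/callus, and the paper's methods have scraped periosteum collected along with these tissues. Mice were 10 to 14 weeks old, both sexes were mixed, and each library pooled nuclei of 3 or 4 mice. Neither group carried an engineered allele, and both had surgery under ketamine and medetomidine, reversed with atipamezole, with buprenorphine for pain relief. Each condition had 1 library, so no test between conditions or populations was made. Day and injury differed together between the libraries and cannot be told apart, so values of the libraries are given side by side only.

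IL-6 family cytokines signal through a shared receptor chain, gp130, which is encoded by Il6st. A second chain sets which ligand is bound: Il6ra binds IL-6, and Lifr binds leukaemia inhibitory factor (LIF). Osmr binds oncostatin M (OSM), which in mice signals mainly through OSMR paired with gp130. Engaged gp130 activates JAK kinases, which phosphorylate STAT3, and STAT3 switches on Socs3, whose product then blocks gp130 signalling. In bone, OSM made by myeloid cells is known to act on osteogenic cells, and IL-6 and LIF are made by stromal cells during injury.

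A short piece of the Socs3 promoter is shown because STAT3 acts on this gene through palindromic sites of the TTC to GAA kind. In the RefSeq start-site table (GRCm38.p6), chr11:117969502-117969530, read on the minus strand on which Socs3 lies, holds 1 match of the pattern TTCNNNGAA, in capitals, starting 154 bases before the RefSeq start.
Socs3: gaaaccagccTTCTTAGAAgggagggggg
The 250 bases before the start were searched in 11 RefSeq entries covering 9 of the 10 genes, and the stretch shown held the single match. The pattern reads the same on both strands. It occurs in 2306 of the 32851 promoters of the table (7.02%). The stricter pattern TTCCNGGAA, which is contained in the first, was found in 300 of them (0.913%) and in 0 of the 11 entries. In the GENCODE gene models of mm10, this stretch lies upstream of the coding Socs3 transcript, inside an intron of a longer non-coding one. A match describes letters and not binding, and whether STAT3 acts on this stretch was not tested. Bases outside the 250 were not searched, so the 0 does not show that Socs3 or another member lacks the stricter pattern.

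Positions are those of the mm10 gene annotation. Il6 lies at chr5:30013114-30019981 and Il11 at chr7:4772373-4782859. Osm (chr11:4236420-4241026) and Lif (chr11:4257557-4272514) are neighbours. Il6ra lies at chr3:89864059-89913196, Il6st at chr13:112464070-112510086, Osmr at chr15:6813577-6874969 and Lifr at chr15:7090614-7197489. Stat3 spans chr11:100885098-100939540 and Socs3 chr11:117966079-117970047. The start of Il6ra is overlapped by the antisense gene Gm42809, and the end of Stat3 overlaps Stat5a on the other strand, so reads there depend on the strand setting of the counting, which is not given in the sources used here.

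After the gene, mitochondrial and ribosomal limits of the study, 1127 of 1446 barcodes remained at day 5 post-MTI, with 4337337 unique molecular identifiers (UMIs) and a median of 2364 per nucleus (range 500 to 22993). At day 1, 2405 of 48987 barcodes remained, with 1202240 UMIs and a median of 409 (range 246 to 8338). The study also removed myogenic nuclei, which were kept here, and its own nucleus counts are lower in both libraries, most of all at day 1. The libraries shared 33 barcodes, of which 15 were retained in both. Levels are given as CPM, the UMIs of a gene divided by all UMIs of the population and multiplied by 1000000, with 95% intervals that cover counting error only. Levels are compared between populations for the same gene and not between genes.

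Populations were named from fixed markers, and the member genes did not enter the clustering. In the MTI library, 4 macrophage-like clusters had 7 to 9 of 9 macrophage markers and are called by their leading genes Ptgr1, Vsig4, Dnase1l3 and Mmp12. Monocyte-like nuclei had 4 of 6 markers (Cd52, Ccr2, Plac8, F13a1), and neutrophil-like nuclei had 6 of 7. The monocyte-like nuclei also had 3 of 9 macrophage markers, and Arg1 was among their leading genes. A skeletal lineage-like cluster led by Matn3 had 6 of 6 stromal markers together with 5 of 5 markers of injury-induced fibrogenic cells (IIFCs), 5 of 5 osteoblast markers and 6 of 6 chondrocyte markers. The Matn3-led cluster also had 4 of 5 markers of pericytes and smooth muscle cells, for which no cluster was named. A second one, led by Pgr, had 6 of 6 stromal, 4 of 5 IIFC and 3 of 4 skeletal stem/progenitor cell (SSPC) markers. It also had 3 of 6 chondrocyte and 2 of 5 pericyte and smooth muscle markers. Erythroid-like nuclei also had 6 of 9 macrophage markers. In all, 301 nuclei stayed unnamed, with a median of 820 UMIs.

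The 4 ligand transcripts were sparse at day 5 post-MTI, and the few UMIs fell in different populations. Osm UMIs were most numerous in monocyte-like nuclei, which held 14 of 28. Il6 UMIs lay mainly in Matn3-led skeletal nuclei, and Lif UMIs in Matn3-led skeletal and osteoclast-like nuclei. Il11 had too few UMIs to place.

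Osm, the ligand of OSMR, had 28 UMIs in 20 nuclei. Monocyte-like nuclei held 14 of them (50%) in 7 of 63 nuclei, a level of 65.2 CPM (35.7 to 109), which was 19.2 times that of all other nuclei (8.49 to 43.5). Neutrophil-like nuclei held 3 UMIs (41.0 CPM, 8.45 to 120). Macrophage-like nuclei held 6 (4.90 CPM, 1.80 to 10.7): 4 in the Ptgr1-led cluster, 1 each in the Dnase1l3-led and Mmp12-led clusters and 0 in the Vsig4-led one. The monocyte-like level was 13.3 times the macrophage-like level (4.80 to 42.2), beyond counting error, while the neutrophil-like and monocyte-like intervals overlapped. The paper marks its early macrophages by Arg1, also a leading gene of the monocyte-like nuclei, and such macrophages were not separated from them here. All myeloid-like nuclei together held 23 of 28 UMIs (82.1%), 8.60 times the level of the other nuclei (3.20 to 29.0). Erythroid-like nuclei and the unnamed Elf5-led cluster held 2 each and endothelial-like nuclei 1. Skeletal lineage-like nuclei held 0 of 1028634 UMIs, which limits Osm there to 3.59 CPM at the upper end of the interval, and muscle fibre-like and osteoclast-like nuclei also held 0.

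The Osm value in monocyte-like nuclei rested on few nuclei. A single nucleus held 6 of the 14 UMIs, and without it the level was 37.8 CPM. Of the 14 UMIs, 11 lay in the 29 monocyte-like nuclei with at least 0.5% mitochondrial UMIs (114 CPM, 56.9 to 204) and 3 in the 34 below that limit (25.4 CPM, 5.24 to 74.2). Over all retained nuclei the Osm level was 12.9 CPM at or above the limit and 3.14 CPM below it. The part of RNA outside the nucleus in these values was not tested. Osm, which was kept out of the clustering, stood behind Olr1, Ankrd37 and Nt5e among the leading genes of the monocyte-like cluster. That ranking uses the same UMIs, for genes with at least 10, so it adds no support to the ratio.

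Il6, the ligand of IL6RA, had 16 UMIs in 9 nuclei, of which Matn3-led skeletal nuclei held 12 (75%) in 5 nuclei. The level there was 13.4 CPM (6.94 to 23.5), 11.6 times that of all other nuclei (3.50 to 49.2). Over all skeletal nuclei the level was 11.7 CPM from summed UMIs and 4.99 CPM as a mean over nuclei. Endothelial-like nuclei held 2 UMIs, and myogenic progenitor-like and Elf5-led nuclei 1 each. The 425 myeloid-like nuclei held 0 UMIs in 1511805, an upper limit of 2.44 CPM. Against macrophage-like nuclei, set at 3 counts, all skeletal nuclei were 4.76-fold higher, and the exact interval of the ratio began at 3.31.

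Lif, which binds LIFR, had 24 UMIs in 15 nuclei. Matn3-led skeletal nuclei held 14 (58.3%) in 8 nuclei, at 15.7 CPM (8.56 to 26.3), 5.39 times the other nuclei (2.23 to 13.6). The 30 osteoclast-like nuclei, large bone-resorbing cells of myeloid origin, held 7 UMIs in 4 nuclei at 34.1 CPM (13.7 to 70.3), 8.30 times the other nuclei (2.91 to 21.1). Osteoclast-like and skeletal levels differed 2.51-fold with an interval of 0.857 to 6.64, so their order was not resolved. The remaining 3 UMIs were 2 in Elf5-led and 1 in endothelial-like nuclei. The other myeloid-like nuclei held 0. Against macrophage-like nuclei set at 3 counts, the skeletal level was 5.55-fold and the osteoclast-like level 13.9-fold higher. The exact intervals of these ratios began at 3.95 and 8.6.

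The Pgr-led skeletal cluster held 0 UMIs of Il6 and of Lif in 134635 UMIs. Its upper limit of 27.4 CPM lies above the Matn3-led levels, so a difference between the skeletal clusters was not detectable at this depth. Il11, which signals through its own receptor and gp130, had 5 UMIs in 4 nuclei: 2 in 1 endothelial-like nucleus and 1 each in Pgr-led, erythroid-like and Elf5-led nuclei. Lif and Il6 were both found in 2 nuclei.

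**Figure D1:**
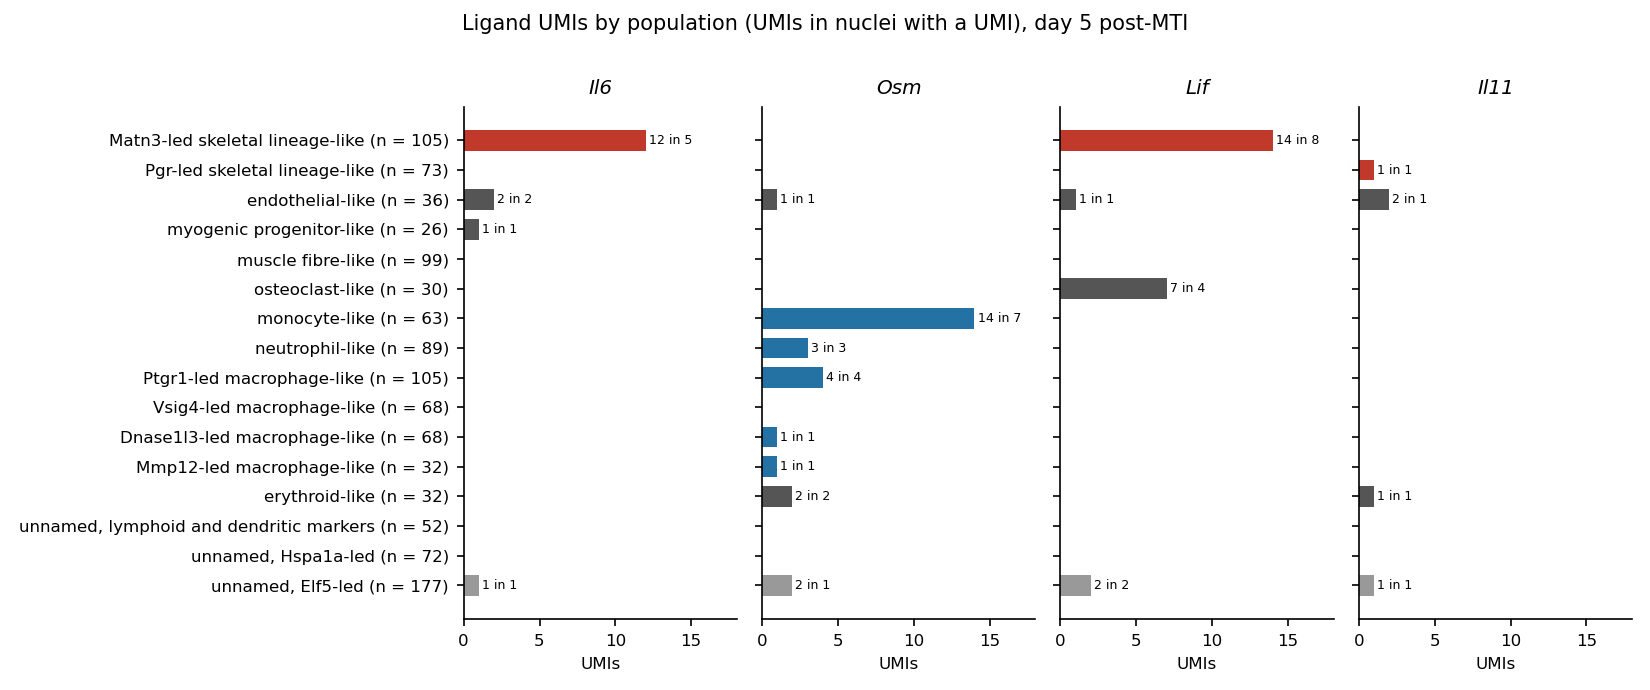
UMIs of Il6, Osm, Lif and Il11 (x axis, UMIs) summed in each population at day 5 post-MTI, with the number of nuclei that held them printed beside the bar and the nuclei per population in parentheses. Osm had its longest bar in monocyte-like nuclei (14 UMIs in 7 nuclei), Il6 in Matn3-led skeletal nuclei (12 in 5), and Lif in Matn3-led skeletal (14 in 8) and osteoclast-like nuclei (7 in 4).

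The receptor chains were better counted and divided the populations in opposite ways. Osmr was high in skeletal lineage-like nuclei and nearly undetected in macrophage-like nuclei. Il6ra was high in myeloid nuclei and low in skeletal nuclei. Il6st, the shared chain, was found in every population, with 1 UMI in neutrophil-like nuclei.

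Osmr had 301 UMIs, of which skeletal lineage-like nuclei held 228 (75.8%) at 222 CPM (194 to 252), 10.1 times the other nuclei (7.69 to 13.3). The Matn3-led and Pgr-led clusters had nearly the same level, 223 CPM (193 to 256) and 215 CPM (144 to 309), with a ratio of 1.03 (0.698 to 1.58). Endothelial-like nuclei followed at 122 CPM (76.2 to 184), 0.548 times the skeletal level (0.337 to 0.851), and then myogenic progenitor-like nuclei at 92.5 CPM (54.8 to 146), whose interval overlapped the endothelial one. Muscle fibre-like nuclei had 21.5 CPM (12.0 to 35.4), so that the progenitors stood 4.31-fold above the fibres (2.05 to 9.18). Neutrophil-like nuclei had 4 UMIs (54.7 CPM, 14.9 to 140), but 0 where mitochondrial UMIs were held under 0.5%. Monocyte-like nuclei had 3 UMIs (14.0 CPM) and osteoclast-like nuclei 1. Macrophage-like nuclei had 2 UMIs in 1223918 (1.63 CPM, 0.198 to 5.90), so that the skeletal level was 136 times higher (37.1 to 1127), and erythroid-like nuclei had 0. Macrophage marker genes in the skeletal nuclei summed to 186.7 CPM, against 7455 CPM of stromal and 7163 CPM of IIFC markers.

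Il6ra had 532 UMIs, and its highest levels were in myeloid nuclei. Neutrophil-like nuclei stood at 355 CPM (232 to 521), Dnase1l3-led macrophages at 330 CPM (268 to 402) and monocyte-like nuclei at 326 CPM (254 to 412), with overlapping intervals. All macrophage-like nuclei were at 229 CPM (203 to 257), and the Ptgr1-led, Vsig4-led and Mmp12-led clusters at 212, 192 and 166 CPM. The Dnase1l3-led level was 1.56 times the Ptgr1-led one (1.16 to 2.09), and the monocyte-like level 1.43 times that of all macrophages (1.08 to 1.86). Erythroid-like nuclei, which also carried macrophage markers, had 173 CPM (116 to 249), and all unnamed nuclei 166 CPM (126 to 214), both in the range of the macrophage clusters. Osteoclast-like nuclei had 117 CPM (75.0 to 174). Skeletal nuclei had 23.3 CPM (upper limit 34.7), which was 0.102 times the macrophage-like level (0.0643 to 0.155), and muscle fibre-like and endothelial-like nuclei had 20.0 and 11.1 CPM. Myogenic progenitor-like nuclei had 5 UMIs, all in 1 nucleus.

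Il6st had 640 UMIs. Endothelial-like nuclei had 265 CPM (196 to 352) and skeletal nuclei 215 CPM (188 to 245), with overlapping intervals, and myogenic progenitor-like and muscle fibre-like nuclei had 159 and 152 CPM. Macrophage-like nuclei had 109 CPM (91.0 to 129), so skeletal nuclei stood 1.98-fold above them (1.59 to 2.47). Neutrophil-like nuclei had 1 UMI in 73188 (13.7 CPM, 0.346 to 76.1), 0.0912 times the other nuclei (0.00231 to 0.510), although Il6ra had 26 UMIs in the same nuclei.

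Lifr had 270 UMIs and was uneven within classes. Vsig4-led macrophages had 133 CPM (94.0 to 182), which was 3.72 times the Ptgr1-led level of 35.7 CPM (2.03 to 7.15), while Mmp12-led macrophages had 1 UMI. Endothelial-like nuclei had 133 CPM (84.9 to 197), and unnamed nuclei with lymphoid and dendritic markers had 166 CPM (100 to 260). Skeletal nuclei had 93.3 CPM (75.6 to 114), of which 1 nucleus held 15 of the 96 UMIs, and the Matn3-led over Pgr-led ratio of 2.26 had an interval of 0.998 to 6.32. Myogenic progenitor-like nuclei had 97.6 CPM, 5.68 times the muscle fibre-like level of 17.2 CPM (2.62 to 12.8). Osteoclast-like and neutrophil-like nuclei had 1 UMI each.

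**Figure D2:**
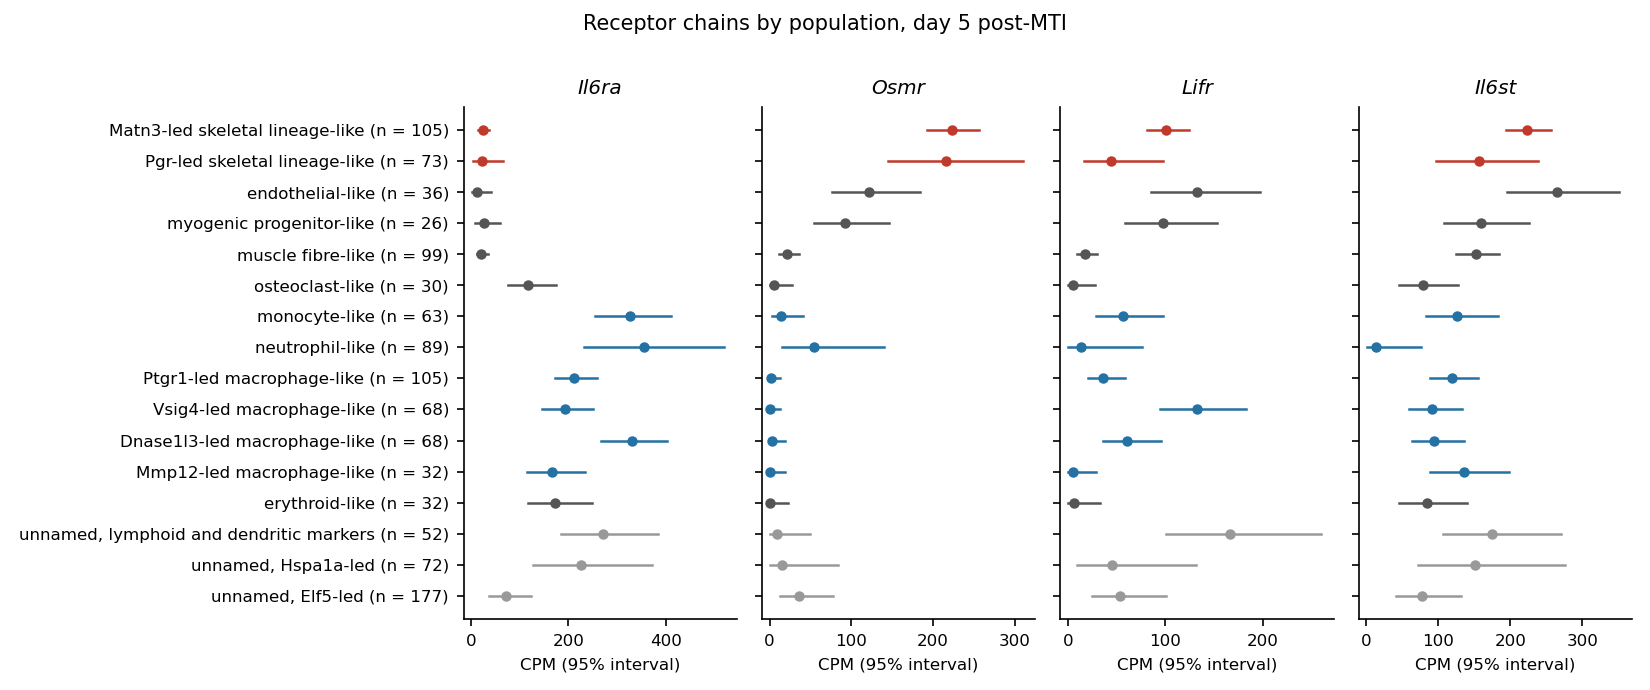
Levels of Il6ra, Osmr, Lifr and Il6st (x axis, CPM) in each population at day 5 post-MTI, as points with 95% counting intervals, red for skeletal, blue for myeloid, dark grey for other named and light grey for unnamed nuclei. Osmr was 223 and 215 CPM in the skeletal clusters and 1.63 CPM over all macrophage-like nuclei, whereas Il6ra was 23.3 CPM over all skeletal and 229 CPM over all macrophage-like nuclei.

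The same division was seen per nucleus. An Osmr UMI was found in 90 of 178 skeletal nuclei (50.6%) and in 2 of 273 macrophage-like nuclei (0.733%), whose median depths were 3818 and 4043 UMIs. After thinning to 500 UMIs a nucleus the shares were 12.9% (8.37 to 18.8) and 0% (up to 1.34%). For Il6ra the thinned share was 13.2% of macrophage-like nuclei (9.41 to 17.8) and 0.562% of skeletal nuclei (0.0142 to 3.09), against 53.5% and 8.43% before thinning.

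Both chains of the OSM receptor, Osmr and Il6st, were found in 60 of 178 skeletal nuclei (33.7%, 26.8 to 41.2), in 7 of 36 endothelial-like nuclei and in 0 of 273 macrophage-like nuclei (upper limit 1.34%). Both chains of the IL-6 receptor, Il6ra and Il6st, were found in 47 of 273 macrophage-like nuclei (17.2%, 12.9 to 22.2), 12 of 63 monocyte-like nuclei and 12 of 178 skeletal nuclei. Lifr and Il6st were found together in 29 of 178 skeletal nuclei, and Osmr and Lifr in 26. Osmr was found with Stat3 in 70 of 178 skeletal nuclei (39.3%). Of the 16 myeloid-like nuclei with an Osm UMI, 11 had an Il6ra UMI (68.8%, against 48.9% of all myeloid-like nuclei), and 1 monocyte-like nucleus had both Osm and Osmr. Deeper nuclei hold more pairs of any kind, and these counts were not thinned.

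Downstream of the receptors, Stat3 was found in every population and Socs3 in far fewer nuclei. Both had their highest value in neutrophil-like nuclei, whose median depth was 737 UMIs. Of 1167 Stat3 UMIs, neutrophil-like nuclei held 57 at 779 CPM (590 to 1009), 3.36 times the macrophage-like level of 232 CPM (2.48 to 4.47). Monocyte-like nuclei had 368 CPM (291 to 459), 1.59 times the macrophage-like level (1.22 to 2.04). Skeletal, muscle fibre-like and endothelial-like nuclei lay at 294, 291 and 287 CPM and could not be ordered, and osteoclast-like and erythroid-like nuclei were lowest at 141 CPM (94.7 to 203) and 83.7 CPM. After thinning, 29.2% of neutrophil-like nuclei (20.1 to 39.8) and 15.8% of macrophage-like nuclei had a Stat3 UMI.

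Socs3 had 85 UMIs, of which myeloid-like nuclei held 49 (57.7%). Neutrophil-like nuclei had 6 at 82.0 CPM (30.1 to 178), 4.43 times the other nuclei (1.58 to 10.1), and monocyte-like nuclei 12 at 55.9 CPM (28.9 to 97.6), 2.21 times the macrophage-like level of 25.3 CPM (1.03 to 4.42). The unnamed Hspa1a-led cluster had 4 UMIs (60.1 CPM) and Ptgr1-led macrophages 40.2 CPM (23.8 to 63.5). Skeletal nuclei had 18 UMIs at 17.5 CPM (10.4 to 27.7). Muscle fibre-like nuclei had 0 in 698455 UMIs, an upper limit of 5.28 CPM, although their Stat3 level was close to that of skeletal nuclei.

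**Figure D3:**
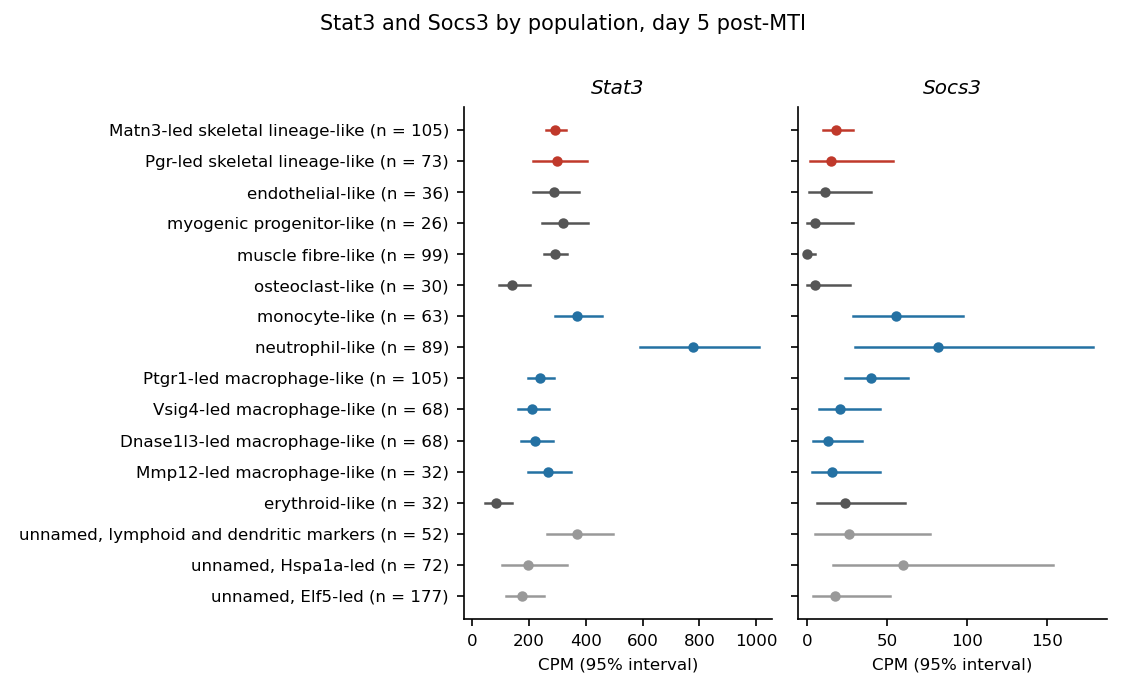
Levels of Stat3 and Socs3 (x axis, CPM) in each population at day 5 post-MTI, as points with 95% counting intervals in the same colours as the receptor plot. Neutrophil-like nuclei lay highest for both, at 779 CPM of Stat3 and 82.0 CPM of Socs3, and muscle fibre-like nuclei had 0 Socs3 UMIs.

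Of the 10 members, 9 had at least 10 UMIs at day 5 post-MTI, and Il11 did not. In skeletal nuclei 3 of the 9 (Il6, Lif, Osmr) were at least 2-fold higher than in the other nuclei, where 15.7% of all 15213 genes were, and 2 (Osm, Il6ra) at least 2-fold lower, against 26% of all genes. In macrophage-like nuclei 1 (Il6ra) was higher, against 10.3%, and 3 (Il6, Lif, Osmr) were lower, against 33.4%. In monocyte-like nuclei 3 (Osm, Il6ra, Socs3) were higher, against 9.11%, and 3 lower, against 44.1%. In neutrophil-like nuclei 4 (Osm, Il6ra, Stat3, Socs3) were higher, against 16.6%, and 4 (Il6, Lif, Lifr, Il6st) lower, against 54.9%. Il6 and Lif had 0 UMIs in the 214699 UMIs of monocyte-like nuclei and the 73188 of neutrophil-like nuclei. With 16 and 24 UMIs over all retained nuclei, a lower level of these genes there was not detectable at this depth. The lower call of Lifr in neutrophil-like nuclei rests on 1 UMI. Against macrophage-like nuclei its ratio was 0.229 with an interval of 0.00572 to 1.32, within counting error. In muscle fibre-like nuclei 0 were higher, against 12.6%, and 7 lower, against 40.6%. The median ratio of the members was 1.7 in skeletal, 0.694 in macrophage-like, 0.893 in monocyte-like, 0.785 in neutrophil-like and 0.141 in muscle fibre-like nuclei, beside 0.877, 0.803, 0.64, 0.355 and 0.651 over all genes.

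Among 16 genes listed as known STAT3 targets, 14 had at least 10 UMIs. In neutrophil-like nuclei 8 were at least 2-fold higher and 3 lower (median ratio 3.08), in monocyte-like nuclei 6 and 2 (median 1.89), in macrophage-like nuclei 3 and 2 (median 1.39), in skeletal nuclei 1 and 7 (median 0.578), and in muscle fibre-like nuclei 0 and 11 (median 0.101). Over all genes, the shares higher in these populations, in the same order, were 16.6%, 9.11%, 10.3%, 15.7% and 12.6%. The shares lower were 54.9%, 44.1%, 33.4%, 26% and 40.6%, and the median ratios 0.355, 0.64, 0.803, 0.877 and 0.651. Many of the listed targets respond to other signals as well, and the part of STAT3 or of cell type in these counts was not tested. Fos, an immediate early transcription factor, stood at 363 CPM in monocyte-like nuclei, 4.24 times the others (3.28 to 5.44), and at 410 CPM in neutrophil-like nuclei, 4.36 times (2.90 to 6.32). Mcl1, a survival factor of the BCL2 family, stood at 475 CPM (3.26-fold, 2.62 to 4.03) and 574 CPM (3.71-fold, 2.65 to 5.07) in the same populations. The transcription factor gene Cebpb (154 CPM, 3.62-fold, 2.42 to 5.28) and the kinase gene Pim1 (172 CPM, 3.26-fold, 2.24 to 4.63) were higher in monocyte-like nuclei. Il4ra, a receptor chain for IL-4, was higher in macrophage-like nuclei (245 CPM, 2.64-fold, 2.24 to 3.11), and the adhesion molecule gene Icam1 in the Dnase1l3-led cluster (121 CPM, 4.71-fold, 3.13 to 6.94). Timp1, an inhibitor of matrix metalloproteinases, was the target higher in skeletal nuclei (60.3 CPM, 8.67-fold, 5.30 to 14.7).

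**Figure D4:**
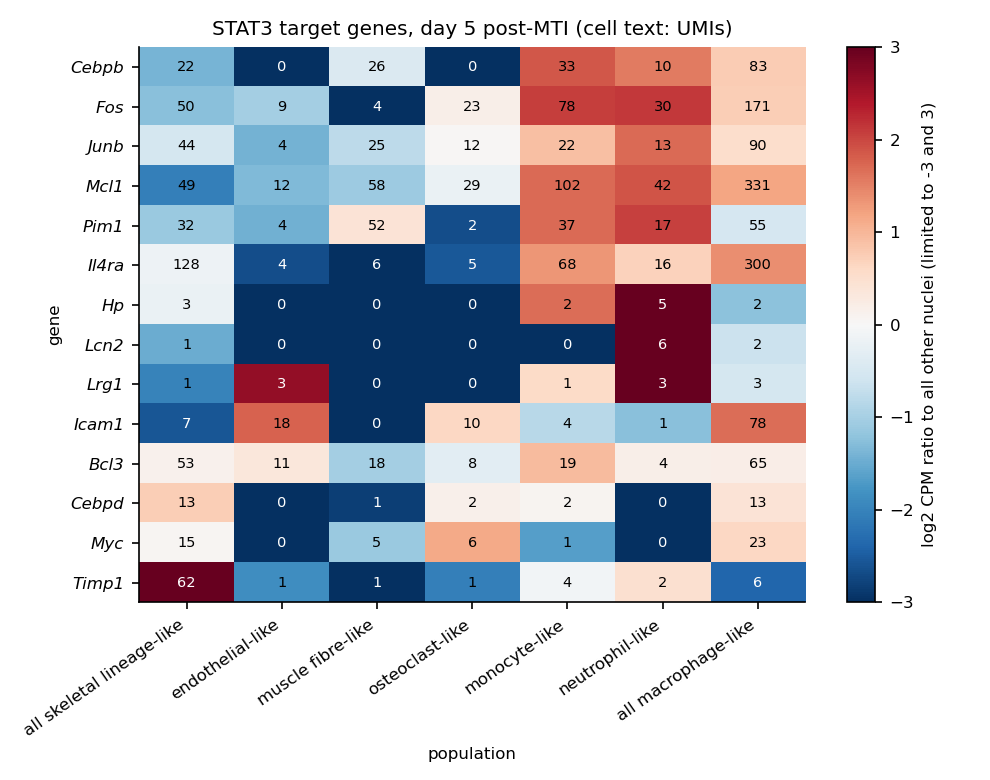
Log2 CPM ratio of 14 STAT3 target genes (rows) in 7 populations (columns) against all other nuclei at day 5 post-MTI, as colour limited to 3 log2 units in either direction, with the UMIs printed in each cell. Cells with 0 UMIs are drawn at the lower limit. Neutrophil-like and monocyte-like columns are mostly red for Fos, Mcl1, Cebpb and Pim1, and Timp1 is red in skeletal nuclei with 62 UMIs.

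The remaining genes of the pathway were examined as 4 lists. Of all genes, 15% were at least 2-fold higher in Matn3-led nuclei, 15.2% in Pgr-led nuclei and in those with lymphoid and dendritic markers, 8.7% in Vsig4-led, 10.3% in Dnase1l3-led, 25.2% in Elf5-led and 15.6% in Hspa1a-led nuclei. Of the 4 other receptors, 3 were counted well enough. Il11ra1, the IL-11 receptor chain, was higher in Matn3-led skeletal nuclei (31.3 CPM, 3.00-fold, 1.76 to 5.05), the population in which Il11 itself had 0 UMIs. Il31ra, which pairs with OSMR to bind IL-31, was higher in Pgr-led skeletal nuclei (364 CPM, 2.36-fold, 1.73 to 3.16). It was also higher in the shallow unnamed Elf5-led (3.10-fold) and Hspa1a-led (2.59-fold) clusters, whose median depths of 689 and 809 UMIs were below the 1491 UMIs of Pgr-led nuclei. Of the 6 other ligands, 4 were counted, and in skeletal nuclei Il27 and Ebi3 were at least 2-fold lower, as were 26% of all genes.

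Of the 6 kinases and STATs, 0 were at least 2-fold higher or lower in skeletal, macrophage-like or monocyte-like nuclei. Of all genes, 15.7%, 10.3% and 9.11% were higher in these populations, in the same order, and 26%, 33.4% and 44.1% were lower. Jak1, the main gp130 kinase, was higher in neutrophil-like nuclei (601 CPM, 2.30-fold, 1.66 to 3.10). Jak2, another gp130 kinase, was higher in the unnamed nuclei with lymphoid and dendritic markers (411 CPM, 3.82-fold, 2.76 to 5.16). Of the 6 inhibitors, 5 were counted. Ptpn6, a phosphatase of blood cells, was higher in macrophage-like nuclei (67.0 CPM, 3.07-fold, 2.20 to 4.30). Pias3, an inhibitor of STAT3, was higher in Matn3-led skeletal nuclei (36.9 CPM, 2.15-fold, 1.36 to 3.35).

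Over the 16 MTI populations and 9545 genes, the genes most like Osmr in log2(CPM + 10) were Adamts12 (Pearson r = 0.957), Cald1 (0.953) and Timp3 (0.94). Those most like Il6ra included Laptm5 (0.983) and Prkcd (0.972). For Il6st they were Ccdc6 (0.921), Arhgap35 (0.883) and Xrn1 (0.871), and for Lifr Spin1 (0.808), Mtmr12 (0.781) and Cbfa2t3 (0.776). For Stat3 they were Srr (0.816), Stk40 (0.806) and Ppp1r12a (0.795), and for Socs3 Fbxl5 (0.89), Emilin2 (0.878) and Kif21b (0.874). Among all pairs of members, Il6ra and Osmr had the lowest r (-0.728), and Osmr and Il6 the highest (0.683). Il6 had 16 UMIs, 12 of them in Matn3-led nuclei, so its r rests mainly on that cluster. The 16 points come from 1 library and differ in depth, so these are descriptions.

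At day 1 post-fracture, the receptor chains Osmr and Il6st were higher in skeletal lineage-like nuclei than in the RNA outside nuclei, and the ligands were not resolved. The level of free RNA was taken from the 43464 barcodes with under 200 genes, which held 6848386 UMIs. The MTI library had 27 such barcodes with 36734 UMIs, too few for a free RNA level of its own. Under the filter of the study (mitochondrial UMIs under 0.5%) there were 92 skeletal lineage-like, 252 macrophage-like and 558 muscle fibre-like nuclei, and 1503 stayed unnamed. Muscle fibre markers summed to 55481 CPM over the retained nuclei and to 29035 CPM in skeletal nuclei, whose stromal markers summed to 1600 CPM. Macrophage-like nuclei had 5 of 9 macrophage markers and a median of 336.5 UMIs, but also 4 of 6 endothelial and 3 of 7 neutrophil markers, and no macrophage marker stood among their 15 leading genes, so the name is weak. With mitochondrial UMIs under 5%, there were 411 skeletal lineage-like nuclei with 194903 UMIs and 467 immune-like nuclei with 177378, whose macrophage and muscle fibre markers summed to 1330 and 12595 CPM. A further 208 nuclei were macrophage-like and 3430 stayed unnamed. The immune-like nuclei had 7 of 9 macrophage markers, and also 3 of 4 SSPC and 2 of 6 osteoclast markers. The 208 macrophage-like nuclei had 6 of 9 macrophage markers, so these names do not set macrophages apart from the immune-like nuclei.

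Free RNA held 53 UMIs of Il6 (7.74 CPM), 95 of Osm (13.9 CPM), 79 of Lif (11.5 CPM) and 25 of Il11 (3.65 CPM). Retained nuclei held 3, 10, 6 and 6 UMIs of these genes. Il6 was 3.10 times higher in free RNA than in retained nuclei (1.01 to 15.5), Lif 2.31 times (1.02 to 6.49) and Socs3 1.68 times (1.11 to 2.65). With the 5% limit, retained nuclei stood at 0.623 times free RNA for Il6 (0.303 to 1.18) and 0.766 times for Lif (0.455 to 1.24), within counting error, and at 0.748 times for Socs3 (0.560 to 0.988). In skeletal nuclei Lif had 1 UMI and Il6, Osm and Il11 had 0. Under the 5% limit, skeletal nuclei had 5 Lif UMIs (25.7 CPM, 2.22 times free RNA, 0.703 to 5.41) and 3 of Il11 (15.4 CPM, 4.22 times, 0.815 to 13.8), and immune-like nuclei had 4 of Osm (22.6 CPM, 1.63 times, 0.434 to 4.30). None of these 3 ligand levels was above free RNA beyond counting error.

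Osmr had 11 UMIs in day 1 skeletal nuclei at 235 CPM (117 to 420), 4.55 times the 51.5 CPM of free RNA (2.25 to 8.25). Macrophage-like and muscle fibre-like nuclei were at 0.850 and 0.803 times free RNA, and skeletal nuclei stood 5.35-fold (1.59 to 23.1) and 5.67-fold (2.33 to 13.5) above them. Under the 5% limit the skeletal level was 205 CPM (147 to 280), 3.98 times free RNA (2.80 to 5.53) and 7.28 times immune-like nuclei (2.87 to 23.6). The skeletal level at day 5 post-MTI was 222 CPM. Thinned to 250 UMIs, 6.52% of skeletal nuclei (2.43 to 13.7) and 1.2% of macrophage-like nuclei had an Osmr UMI.

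Il6st had 11 UMIs in the same skeletal nuclei (235 CPM, 4.31 times free RNA, 2.13 to 7.80), and 174 CPM under the 5% limit (3.20 times, 2.19 to 4.56). Lifr had 9 UMIs in 6 nuclei (192 CPM, 4.61 times, 2.09 to 8.88), but 66.7 CPM under the 5% limit, 1.60 times free RNA with an interval of 0.843 to 2.79. In muscle fibre-like nuclei Lifr lay below free RNA (0.426 times, 0.155 to 0.939), but with the 5% limit the ratio was 0.573 with an interval of 0.293 to 1.02.

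In the named day 1 populations given here, the intervals of Il6ra, Stat3 and Socs3 against free RNA all included 1 under the filter of the study. In skeletal nuclei their ratios were 1.30 (0.354 to 3.36), 1.01 and 1.22, and in macrophage-like nuclei Il6ra was at 1.01 and Stat3 at 1.04. Among the unnamed clusters, Stat3 stood at 1.68 times free RNA in Nom1-led nuclei (1.02 to 2.62) and at 0.345 times in Gm49648-led nuclei (0.148 to 0.682). Under the 5% limit, Stat3 in immune-like nuclei was 237 CPM, 1.87 times free RNA (1.34 to 2.55), and the skeletal level was 0.477 times that (0.271 to 0.817). Il6ra in the same immune-like nuclei was 84.6 CPM (47.3 to 140), 1.29 times free RNA (0.718 to 2.16). In muscle fibre-like nuclei under this limit Il6ra was 41.7 CPM, below free RNA (0.638 times, 0.391 to 0.987). The 208 macrophage-like nuclei had Stat3 at 155 CPM (1.23 times free RNA, 0.684 to 2.04), Il6ra at 51.7 CPM (0.790 times, 0.255 to 1.86) and 0 Osm UMIs, beside 229 CPM of Il6ra in macrophage-like nuclei post-MTI.

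**Figure D5:**
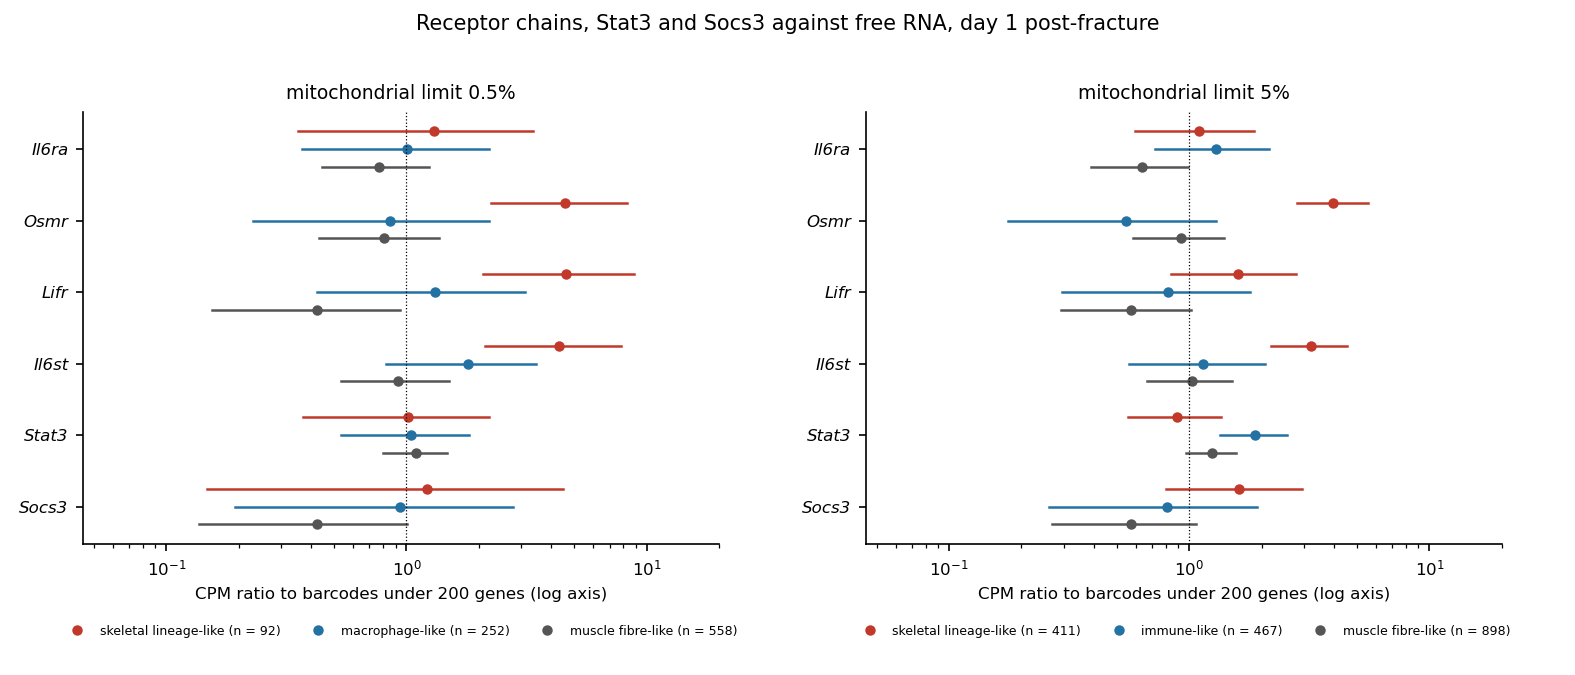
CPM ratio to barcodes under 200 genes (x axis, log scale) for Il6ra, Osmr, Lifr, Il6st, Stat3 and Socs3 at day 1 post-fracture, as points with 95% counting intervals, with the mitochondrial limit of 0.5% on the left and 5% on the right. The dotted line marks equality with free RNA, above which Osmr and Il6st of skeletal nuclei lie in both panels (Osmr 4.55 and 3.98).

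Of 7 members with enough UMIs at day 1, 4 (Osmr, Lifr, Il6st and, with 2 UMIs, Socs3) were at least 2-fold higher in skeletal than in other nuclei, where 18.4% of all genes were, and 1 (Osm) was lower, against 38.6%. Against free RNA 3 of 10 were higher (17.1% of all genes) and 3 (Osm, Il6, Il11) lower (57.8%). The members called lower had 0 UMIs in the 46875 UMIs of these skeletal nuclei. Their intervals all included 1, and that of Osm against other nuclei was 0 to 11. A lower level of these genes there was not detectable at this depth. Under the 5% limit 6 of 10 (Osmr, Il6st, Socs3, Lif, Il11, Il6) were higher than in other nuclei (11.5% of all genes) and 1 lower (24.7%), and 4 (Osmr, Il6st, Lif, Il11) were higher than free RNA (15.4%) and 1 lower (31.7%). The ligands called higher rest on 5 UMIs of Lif, 3 of Il11 and 2 of Il6, with intervals that include 1. The higher calls beyond counting error were therefore 3 against other nuclei and 2 against free RNA. The lower call under this limit was Osm by both measures, with 1 UMI and intervals that include 1. Of the other pathway genes, Timp1 was higher in skeletal nuclei under the 5% limit (154 CPM, 6.09-fold over other nuclei, 3.78 to 9.62, and 4.77-fold over free RNA, 3.14 to 7.0). In immune-like nuclei 11.6% of all genes were at least 2-fold higher than in other nuclei and 15.3% than in free RNA. Il4ra was higher there by both measures (186 CPM, 3.47-fold, 2.29 to 5.13, and 3.23-fold over free RNA). Cebpb and Fos were 2.03-fold and 2.51-fold higher than in other nuclei, but 1.29-fold and 1.71-fold over free RNA.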

How the data were processed

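The authors deposited UMI counts per gene and barcode for each library (Chromium 3′ v3.1, SYTOX-AAD-sorted nuclei), made per the labels with Cell Ranger 7.0.1 on exonic and intronic reads, mm10. The labels also name a human reference, but all 32285 gene identifiers are those of mouse. The counts were not normalised.

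Nuclei with 200 to 5000 genes were kept, with under 0.5% mitochondrial and 2.5% ribosomal UMIs at day 1 and under 5% and 2% at day 5 post-MTI. They were clustered with Seurat 5.3.0 (R 4.3.3; 2000 variable genes, 20 and 30 components, resolution 1.7 and 1.0, with mitochondrial and ribosomal content and, at day 1, cell cycle scores regressed out, and immune and skeletal nuclei clustered again), with the member and pathway genes left out, and named from marker lists where at least 3 markers with at least 3 UMIs were 1.5-fold higher. Scrublet (scanpy 1.11.5) called 0.0185% and 0.266% of nuclei and was taken not to have worked, so doublets were kept.

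UMIs were summed per population (Python 3.11.15, scipy 1.17.1). Intervals are exact at 95%: Poisson for CPM, conditional binomial for CPM ratios, Clopper-Pearson for shares. A floor of 3 counts was used for lower bounds. A gene was called higher or lower at a CPM ratio of 2 with at least 10 UMIs. In data simulated for the skeletal against macrophage-like comparison (11999 genes), intervals held the true ratio in 95.7% of genes at 2-fold and 96.2% at 4-fold. The simulated sums were Poisson draws, which lack the clumping of UMIs in single nuclei. They check the calculation only, and coverage in the real data was not tested.

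All 10 members were measured in every population, and not every unnamed cluster is described; pathway genes are given values where a population of over 50 nuclei had at least 20 UMIs and a ratio of at least 2. Genes named with fewer UMIs were chosen after their values were seen, and some genes that met the rule are not reported here. Alternatives changed the filters, the clustering, the naming, the weighting of nuclei and the free RNA barcodes. Another removed the nuclei called by Scrublet, only 3 at day 5 post-MTI and 1 at day 1, and is a weak check. The members and lists were chosen with earlier results of these data known.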

Additional observations from a re-analysis of the deposited data

Results flagged for a closer look

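Some signal lay in barcodes that the filters removed. In the 319 barcodes removed from the MTI library, Osmr stood at 111.4 CPM, 1.61 times the 69.4 CPM of the retained nuclei (1.32 to 1.94). Of its 174 UMIs, 97 lay in the 21 barcodes with over 5000 genes, where the level was 162 CPM. Socs3 stood at 28.81 CPM in the removed barcodes, 1.47 times the retained nuclei (1.00 to 2.13). These barcodes were not named, and there is 1 library, so no replicate bears on either value.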

How the results depend on the processing

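No paired analysis was possible because each condition had 1 library. Of 255 alternative values of 28 MTI levels, 244 stayed within the counting interval and 11 moved. Of 40 alternative values of 5 day 1 ratios to free RNA, 1 moved. Of 8 shares, 7 moved without thinning. Values were sorted only into those that stayed and those that moved. A single level or share has no direction, so reversal was not tested. Osm in monocyte-like nuclei was 114.1 CPM with at least 500 genes per nucleus (14 UMIs in 37 nuclei), 20.2 CPM with a mitochondrial limit of 0.5% (3 UMIs in 45 nuclei), and 37.8 CPM without the nucleus with most Osm UMIs, an alternative chosen after seeing the data. Osmr in neutrophil-like nuclei was 0 CPM with the 0.5% limit and 13.6 CPM with nuclei assigned singly. Osm in macrophage-like nuclei was 1.17 CPM with the 0.5% limit and 1.78 CPM with nothing regressed out, and Osmr in muscle fibre-like nuclei 37.0 CPM at the halved resolution. As a mean over nuclei, Il6 in skeletal nuclei was 4.99 CPM, Lifr in skeletal nuclei 70.9 CPM, Il6st in endothelial-like nuclei 383 CPM and Il6st in muscle fibre-like nuclei 123 CPM. The day 1 Lifr ratio in skeletal nuclei was 1.60 with the 5% limit. Without thinning, shares were 50.6% for Osmr and 8.43% for Il6ra in skeletal nuclei, and 53.5% for Il6ra in macrophage-like nuclei. Thinning to 500 UMIs lowers such shares by construction. The cause of the other moves was not tested. Alternatives that left under 20 nuclei were not run: monocyte-like nuclei assigned singly (7 nuclei), and day 1 skeletal nuclei assigned singly (13) or with at least 500 genes (0). Depth limits the ligands and the whole day 1 library.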
